A study of Mus musculus with 6 samples.

Results

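The genes described here carry cells from the onset of mitosis to their division: the kinases and cyclins of mitotic entry, the spindle checkpoint, the kinetochore, the spindle motors, cytokinesis and chromosome condensation. The members are the rows of all 6 count files whose gene name equals a name on a list of 55 mouse genes and whose counts sum to more than 500 over the libraries. Of the 55 names, 54 were found and all 54 passed that filter, out of 10046 genes that passed it and 34745 in the files. The remaining name, Knl1, is listed in the files as Casc5, under the Ensembl identifier that GENCODE M21 gives to Knl1, and its values are given beside the kinetochore genes without being counted. The study asked which genes respond to depletion of KIAA1522 in 889-DTC (889) cells, a murine lung cancer line kept in Dulbecco's modified Eagle medium with fetal bovine serum. Both groups carried Cas9 and an sgRNA delivered by lentivirus and were isolated by puromycin selection or cell sorting. The 3 libraries named sg-con came from cells with a control sgRNA, for which the methods name an EGFP sgRNA plasmid, and the 3 named sg-kiaa1522 came from cells with kiaa1522 sgRNA, labelled KIAA1522-downregulated. The labels give C57BL/6 as the strain and lung as the tissue for every library, and neither they nor the methods say which kiaa1522 sgRNA was used or whether the cells were pools or clones. The labels do not say whether replicates were separate cultures, so the tests measure only the spread between these libraries.

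In a dividing cell, cyclin-dependent kinase 1 bound to cyclin B starts mitosis, and the kinetochores, protein assemblies built on the centromeres, then attach the chromosomes to spindle microtubules. The spindle checkpoint holds the cell in this state until the attachments are made, after which the anaphase-promoting complex (APC/C) with CDC20 marks securin and cyclin B for destruction and the sister chromatids part. The mRNAs of these proteins accumulate in G2 and mitosis in most cycling cells, so that in bulk RNA a smaller share of cells in those phases and less mRNA in each such cell cannot be told apart. Here expression is given as CPM, counts scaled to a common library total after TMM normalization, and a gene is called lower or higher where its adjusted p is at most 0.05. All adjusted p values come from edgeR's quasi-likelihood test over the 10046 genes with Benjamini-Hochberg adjustment.

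The libraries held between 12220001 and 18609376 counts, and sg-kiaa1522 replicate 1 was the smallest. The targeted gene, listed as C77080, had 127, 129.7 and 124 CPM in the sg-con libraries and 210.4, 203 and 216 in those labelled sg-kiaa1522 (log2 fold change 0.73, standard error 0.0569, adjusted p = 9.1e-05). Its mRNA was thus higher in each library labelled sg-kiaa1522 than in each sg-con library, so those libraries are named by their labels throughout, and the KIAA1522 protein was not measured in these files. Of 10 lung epithelial markers, Krt8, Krt18 and Krt19 were abundant in every library, Epcam had no count in any, and Cldn4 was at or near 0. The summed level of these 10 markers lay between 3979 and 4699 CPM in the sg-con libraries and between 3381 and 3607 CPM in those labelled sg-kiaa1522. The 12 markers of leukocytes, endothelium and fibroblasts summed to at most 8.76 CPM for any of the 3 types in any library. The fibroblast markers, mostly Col1a1, summed to 6.31, 6.91 and 8.76 CPM in the sg-con libraries and to 2.06, 1.85 and 2.65 CPM in those labelled sg-kiaa1522. Cdh1, E-cadherin, fell from between 52.1 and 61.8 CPM to between 19.3 and 21.3 CPM (adjusted p = 5.1e-05), while Foxa2 was at 71.9 to 90.1 and 85.3 to 118 CPM (adjusted p = 0.069). Krt8, Krt18, Krt19 and Sftpb were also called lower (adjusted p = 0.0046, 0.0496, 0.0012 and 0.012). Nkx2-1 had 55.7, 59.1 and 13.6 CPM in the sg-con libraries and 10.9, 9.49 and 39.5 in those labelled sg-kiaa1522 (adjusted p = 0.21). Replicate 3 of each group thus lay apart from the others of its group for Nkx2-1. The part of these markers in the results was not tested.

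Taken as a list, the mitosis genes were called lower about as often as genes in general in the fit reported here, and no test of the difference was run. Of the 54 members, 14 were called lower (25.9%), where 26.3% of all tested genes were, and 8 were called higher (14.8%), where 26.3% of all tested genes were. The other 32 were not called. The median log2 fold change (sg-kiaa1522/sg-con) of the members was -0.08, beside -0.0067 over all tested genes, 31 of 54 (57.4%) lay below 0, beside 50.6% of all tested genes, and the median of its size without regard to sign was 0.19 for the members and 0.32 for all tested genes. At the threshold of the study's methods, under which the fold must also reach 1 on the log2 scale in either direction, Cenpm and Spc24 were called lower (2 of 54, 3.70%; 4.34% of all tested genes), and no member was called higher (2.74% of all tested genes). The groups did not overlap for 15 members that were lower and 9 that were higher in the libraries labelled sg-kiaa1522, where 31.1% and 30.6% of all tested genes were so placed. With each library left out in turn, between 9 and 13 members were called lower and between 4 and 11 higher. Over all tested genes, these fits called 20.7% to 29.5% lower and 20.5% to 29.6% higher. Without sg-con replicate 2, 9 were called lower and 5 higher, where that fit called 21.3% and 20.5% of all tested genes. Without sg-kiaa1522 replicate 1 the members called were 9 and 11 (23.8% and 22.9% of all tested genes), and without sg-kiaa1522 replicate 3 they were 10 and 4 (20.7% and 20.6%). The median log2 fold change of the members was 0.01 without sg-kiaa1522 replicate 1.

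**Figure D1:**
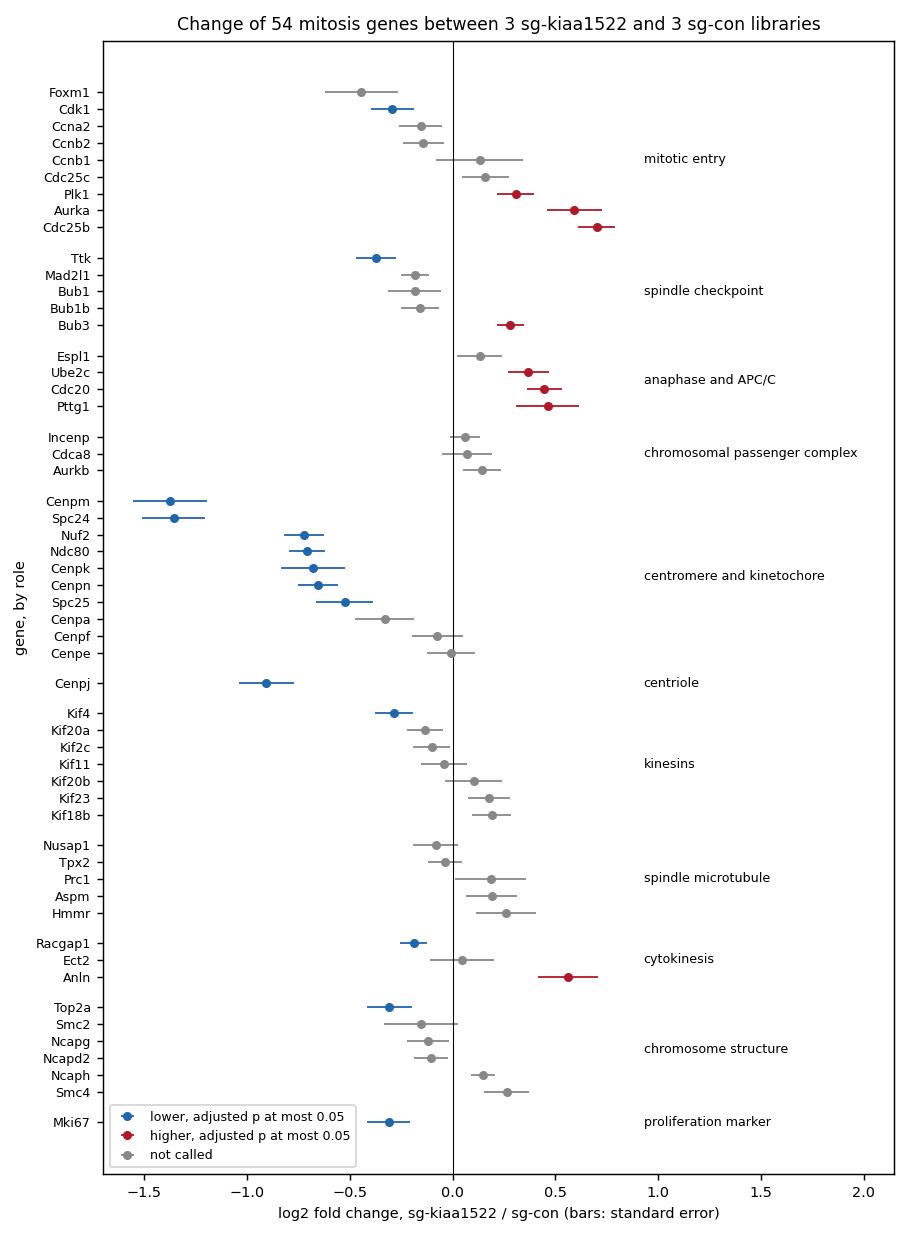
Log2 fold change of each of the 54 members, sg-kiaa1522 over sg-con, grouped by role and ordered by value within a role, with standard errors as bars and colours for the call. The kinetochore genes Cenpm (-1.38) and Spc24 (-1.36) lie farthest to the left, and Cdc25b (0.70) and Aurka (0.59) farthest to the right.

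Over all tested genes 26.3% were called in each direction. By role, 7 of 10 centromere and kinetochore genes were called lower and none higher, while 3 of 4 genes of anaphase were called higher and none lower. In mitotic entry 1 of 9 was called lower and 3 higher, in the spindle checkpoint 1 of 5 was called lower and 1 higher, and in cytokinesis 1 of 3 each way. Of 7 kinesins 1 was called lower, as was 1 of 6 genes of chromosome structure. None of the 5 genes of spindle microtubule binding and none of the 3 of the chromosomal passenger complex was called in either direction. The counts of 1 in 5, 7 or 6 genes lie below the share over all tested genes. These roles were assigned with earlier results of these data known, and no test of a role against the other genes was run.

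Calls that were kept whichever single library was left out form a shorter list. They comprise 9 lower genes, Cenpj, Cenpk, Cenpm, Cenpn, Ndc80, Nuf2, Spc24, Spc25 and Ttk, and 4 higher genes, Aurka, Bub3, Cdc20 and Cdc25b. The share of all tested genes that kept their call in this way is not given here, so these counts cannot be read as high or low. The other 5 lower calls, Cdk1, Kif4, Mki67, Racgap1 and Top2a, and the other 4 higher calls, Anln, Plk1, Pttg1 and Ube2c, were each lost in some of these fits, as given with each gene.

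The members share features of promoter sequence that the choice of genes did not use. RefSeq promoter windows on GRCm38.p6, from 250 bases before to 50 after an annotated start, were matched by symbol for 45 of the 54 members. Windows were searched on both strands for TTTGAA, the core of the cell cycle genes homology region found in genes of G2 and mitosis, for CCAAT, the box bound by NF-Y, and for the E2F-type motifs TTTCCCGC and TTTGGCGC. TTTGAA was found for 33 of the 45 members (73.3%), against 20.2% of the 27025 genes searched and 17.9% of their 32851 windows. CCAAT was found for 35 of 45 (77.8%), against 41.1% of genes and 37.4% of windows, and an E2F-type motif for 3 (6.67%), against 1.80% of genes and 1.56% of windows. In the shorter window from 100 bases before the start, TTTGAA was still found for 31 of the 45 (68.9%), against 9.23% of genes. TTTGAA was found for called and uncalled members: 9 of 13 lower members, 6 of 8 higher members and 18 of 24 members not called. CCAAT was found in 10 of the 13, 6 of the 8 and 19 of the 24. A match is a run of letters in the window and not a measured binding site.

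The windows of Cdc20, Aurka and Ube2c, members that were called higher, and of Ndc80, Spc25 and Cenpm, members that were called lower, are printed 5′ to 3′ in the direction of the gene, so that the elements can be compared across opposite directions of change. Capitals mark the motifs searched, read on either strand, and in Ube2c a CCAAT overlaps the reverse complement of another. The windows are chr4:118437294-118437593 (minus strand) for Cdc20, chr2:172370521-172370820 (minus) for Aurka, chr2:164769679-164769978 (plus) for Ube2c, chr17:71526808-71527107 (minus) for Ndc80, chr2:69206164-69206463 (minus) for Spc25 and chr15:82244287-82244586 (minus) for Cenpm.
Cdc20: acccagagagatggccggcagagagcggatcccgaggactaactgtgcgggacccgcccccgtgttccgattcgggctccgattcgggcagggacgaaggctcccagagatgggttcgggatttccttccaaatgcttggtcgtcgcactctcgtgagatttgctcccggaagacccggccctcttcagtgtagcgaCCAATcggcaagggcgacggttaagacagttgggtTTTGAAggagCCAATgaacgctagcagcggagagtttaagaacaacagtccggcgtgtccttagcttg
Aurka: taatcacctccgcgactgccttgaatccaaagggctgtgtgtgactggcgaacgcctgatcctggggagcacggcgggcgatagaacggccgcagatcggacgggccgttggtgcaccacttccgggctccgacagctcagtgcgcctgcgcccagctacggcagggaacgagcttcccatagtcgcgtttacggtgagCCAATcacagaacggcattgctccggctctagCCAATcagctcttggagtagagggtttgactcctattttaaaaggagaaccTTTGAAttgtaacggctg
Ube2c: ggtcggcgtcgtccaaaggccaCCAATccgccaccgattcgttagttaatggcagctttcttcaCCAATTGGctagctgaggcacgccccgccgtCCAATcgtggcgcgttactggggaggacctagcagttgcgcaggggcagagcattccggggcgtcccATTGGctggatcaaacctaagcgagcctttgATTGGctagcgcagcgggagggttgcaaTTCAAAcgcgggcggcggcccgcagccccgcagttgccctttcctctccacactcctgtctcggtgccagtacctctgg
Ndc80: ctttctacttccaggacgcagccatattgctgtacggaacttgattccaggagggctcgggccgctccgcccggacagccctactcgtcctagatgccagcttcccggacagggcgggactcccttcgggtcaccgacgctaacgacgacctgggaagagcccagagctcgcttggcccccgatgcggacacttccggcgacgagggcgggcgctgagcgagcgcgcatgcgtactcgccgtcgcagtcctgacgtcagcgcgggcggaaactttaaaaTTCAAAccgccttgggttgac
Spc25: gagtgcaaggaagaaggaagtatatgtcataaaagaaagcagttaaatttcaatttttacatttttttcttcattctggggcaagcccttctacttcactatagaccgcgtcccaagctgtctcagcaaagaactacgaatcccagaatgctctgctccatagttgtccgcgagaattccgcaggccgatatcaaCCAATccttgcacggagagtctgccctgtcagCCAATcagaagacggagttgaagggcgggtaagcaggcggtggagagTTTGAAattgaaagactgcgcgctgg
Cenpm: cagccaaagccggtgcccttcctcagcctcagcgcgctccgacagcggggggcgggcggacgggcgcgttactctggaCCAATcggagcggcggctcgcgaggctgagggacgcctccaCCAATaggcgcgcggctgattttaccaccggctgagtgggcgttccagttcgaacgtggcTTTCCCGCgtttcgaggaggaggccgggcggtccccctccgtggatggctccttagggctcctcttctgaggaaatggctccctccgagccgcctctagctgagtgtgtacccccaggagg

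With the annotated start as 0, the TTTGAA of Cdc20 begins at -18, between CCAAT boxes at -53 and -8. Aurka has CCAAT at -51 and -19 and TTTGAA at 32, and Spc25, which changed in the opposite direction, has nearly the same layout with CCAAT at -55 and -23 and TTTGAA at 24. Ube2c holds 6 CCAAT motifs on the 2 strands and a TTCAAA, the reverse complement of TTTGAA, at -29. Ndc80 holds TTCAAA at 29 and no CCAAT. Cenpm, which had the largest fall among the members, holds CCAAT at -172 and -131 and TTTCCCGC at -71, and no TTTGAA.

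Of the 10 centromere and kinetochore genes, 7 fell and none rose, beside 26.3% of all tested genes called in each direction. The core microtubule attachment of a kinetochore is made by the NDC80 complex, a rod of 4 proteins in which NDC80 and NUF2 grip the microtubule and SPC24 and SPC25 anchor the rod to the inner kinetochore. All 4 of its genes were called lower. Ndc80 (ENSMUSG00000024056, chromosome 17 from 71496100 to 71526857) had 145, 148 and 142 CPM in the sg-con libraries and 78.5, 98.6 and 89.2 in those labelled sg-kiaa1522. It fell from 145 ± 2.95 to 88.8 ± 10.1 CPM (SD, n = 3) (log2 fold change -0.71, standard error 0.0880, adjusted p = 5.6e-04). Nuf2 (ENSMUSG00000026683, chromosome 1 from 169497934 to 169531464) had 57.3, 57.8 and 55.8 CPM in the sg-con libraries and 30.6, 38.4 and 34.5 in those labelled sg-kiaa1522 (log2 fold change -0.72, standard error 0.0969, adjusted p = 7.7e-04). For both genes the sg-con libraries were within a few percent of each other and the groups stood far apart. Spc24 (ENSMUSG00000074476, chromosome 9 from 21755442 to 21760303) had 25.2, 29.6 and 34.5 CPM in the sg-con libraries and 11.7, 9.93 and 13.2 in those labelled sg-kiaa1522, and fell from 29.8 ± 4.65 to 11.6 ± 1.63 CPM (SD, n = 3) (log2 fold change -1.36, standard error 0.155, adjusted p = 3.9e-04). Spc25 (ENSMUSG00000005233, chromosome 2 from 69193895 to 69206194) had 37.4, 41.3 and 41.6 CPM in the sg-con libraries and 29.0, 32.4 and 22.3 in those labelled sg-kiaa1522 (log2 fold change -0.53, standard error 0.139, adjusted p = 0.015). Neither of these pairs overlapped between groups, and whether the fall of Spc24 was larger than those of its partners was not tested. With each library left out in turn, the log2 fold change ranged from -1.47 to -1.24 for Spc24, from -0.79 to -0.63 for Ndc80, from -0.80 to -0.65 for Nuf2 and from -0.65 to -0.39 for Spc25.

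**Figure D2:**
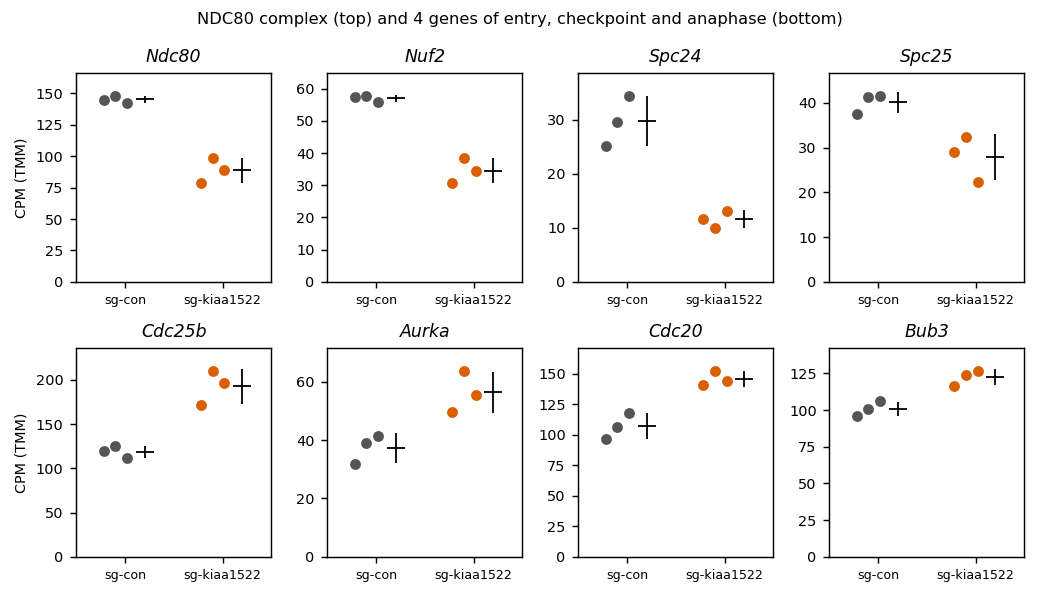
CPM in each library (points) of the 4 genes of the NDC80 complex in the top row and of Cdc25b, Aurka, Cdc20 and Bub3 in the bottom row, with the mean and SD of 3 libraries beside the points and each axis starting at 0. In the top row every library labelled sg-kiaa1522 lies below every sg-con library (Ndc80 at most 98.6 against at least 142 CPM), and in the bottom row every one lies above (Cdc20 at least 141 against at most 118 CPM).

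The inner kinetochore, the constitutive network on centromeric chromatin, was represented by Cenpm, Cenpk and Cenpn. Cenpm, whose product is a small subunit of that network, had 16.2, 21.6 and 22.3 CPM in the sg-con libraries and 6.67, 9.33 and 7.01 in those labelled sg-kiaa1522 and fell from 20.05 ± 3.36 to 7.67 ± 1.45 CPM (SD, n = 3) (log2 fold change -1.38, standard error 0.180, adjusted p = 6.8e-04). This was the largest fall of the list. Cenpk had 12.5, 10.8 and 12.5 CPM in the sg-con libraries and 5.85, 8.02 and 8.30 in those labelled sg-kiaa1522 (log2 fold change -0.68, standard error 0.157, adjusted p = 0.0085), and was the member with the fewest counts, 985 over the 6 libraries. Cenpn, whose product reads the centromeric nucleosome, had 30.4, 26.1 and 30.2 CPM in the sg-con libraries and 18.1, 19.1 and 17.7 in those labelled sg-kiaa1522 (log2 fold change -0.66, standard error 0.0983, adjusted p = 0.0012). The groups did not overlap for any of these genes. Cenpa encodes the histone H3 variant that marks centromeres. Its values were 60.1, 65.0 and 79.7 CPM in the sg-con libraries and 45.6, 62.1 and 54.8 in those labelled sg-kiaa1522, and 1 library labelled sg-kiaa1522 lay within the sg-con range (log2 fold change -0.33, standard error 0.144, adjusted p = 0.089). Without sg-con replicate 1 it was called lower (log2 fold change -0.42, adjusted p = 0.047). The large proteins of the outer corona did not pass the test: Cenpe, a kinesin that moves chromosomes to the spindle equator, had 105, 96.8 and 87.3 CPM in the sg-con libraries and 80.4, 107 and 99.8 in those labelled sg-kiaa1522 (log2 fold change -0.0091, standard error 0.118, adjusted p = 0.96). Cenpf encodes a coiled-coil protein of the corona. It had 189, 157 and 147 CPM in the sg-con libraries and 132, 169 and 166 in those labelled sg-kiaa1522 (log2 fold change -0.07, standard error 0.125, adjusted p = 0.64). For both the groups overlapped. Knl1, listed as Casc5, the scaffold on which the checkpoint proteins gather, had 43.6, 33.4 and 28.5 CPM in the sg-con libraries and 31.9, 32.8 and 30.7 in those labelled sg-kiaa1522 (log2 fold change -0.15, standard error 0.150, adjusted p = 0.44), with sg-con replicate 1 the highest of the 6. Cenpj, which despite its symbol acts in the building of centrioles, had 16.4, 14.6 and 13.4 CPM in the sg-con libraries and 8.24, 8.51 and 6.89 in those labelled sg-kiaa1522 (log2 fold change -0.91, standard error 0.133, adjusted p = 0.0011), with no overlap. Its chromosome is number 14, and the median over the 343 genes tested there was -0.38 on the log2 scale.

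Mitotic entry genes moved in both directions. CDC25B, a phosphatase that activates cyclin-dependent kinases, and Aurora A, a kinase of the spindle poles, had the largest rises of the list in this fit. Anln, at a log2 fold change of 0.56, came close to Aurka, and their order did not hold in every fit with a library left out. Cdc25b (ENSMUSG00000027330, chromosome 2 from 131186949 to 131198497) had 119, 125 and 112 CPM in the sg-con libraries and 171, 211 and 197 in those labelled sg-kiaa1522. It rose from 119 ± 6.64 to 193 ± 19.8 CPM (SD, n = 3) (log2 fold change 0.70, standard error 0.0888, adjusted p = 6.0e-04). Aurka (ENSMUSG00000027496, chromosome 2 from 172356190 to 172370535) had 31.6, 39.1 and 41.5 CPM in the sg-con libraries and 49.7, 63.8 and 55.4 in those labelled sg-kiaa1522 and rose from 37.4 ± 5.16 to 56.3 ± 7.11 CPM (SD, n = 3) (log2 fold change 0.59, standard error 0.134, adjusted p = 0.0078). The groups did not overlap for either gene, and leaving out a library moved Cdc25b between 0.63 and 0.78 and Aurka between 0.48 and 0.67. Plk1 encodes a kinase needed at many steps of mitosis. It had 47.7, 54.2 and 54.7 CPM in the sg-con libraries and 61.4, 62.3 and 70.0 in those labelled sg-kiaa1522 (log2 fold change 0.31, standard error 0.0911, adjusted p = 0.024). Its groups did not overlap, yet the call was lost without sg-con replicate 2 or sg-kiaa1522 replicate 3 (log2 fold change 0.24 to 0.33 and adjusted p 0.055 to 0.090 in those fits). The kinase at the centre of the process, Cdk1, had 106, 106 and 108 CPM in the sg-con libraries and 72.5, 95.03 and 92.8 in those labelled sg-kiaa1522 (log2 fold change -0.29, standard error 0.105, adjusted p = 0.048). Its adjusted p was just under 0.05, and the call was lost without sg-con replicate 1, 2 or 3 or sg-kiaa1522 replicate 1 or 3 (log2 fold change -0.34 to -0.18 and adjusted p 0.063 to 0.099 in those fits).

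The cyclins that pair with CDK1 were not called. Ccnb1, cyclin B1, had 29.0, 36.8 and 40.6 CPM in the sg-con libraries and 27.1, 41.8 and 47.2 in those labelled sg-kiaa1522 (log2 fold change 0.13, standard error 0.211, adjusted p = 0.62), and its libraries varied within both groups by more than the groups differed. Ccnb2, cyclin B2, had 99.9, 104 and 117 CPM in the sg-con libraries and 84.4, 101 and 105 in those labelled sg-kiaa1522 (log2 fold change -0.14, standard error 0.101, adjusted p = 0.27). Ccna2, cyclin A2, which also serves in S phase, had 177, 178 and 181 CPM in the sg-con libraries and 133, 179 and 168 in those labelled sg-kiaa1522 (log2 fold change -0.16, standard error 0.107, adjusted p = 0.25). In Ccna2, sg-con libraries were within a few percent of each other, and sg-kiaa1522 replicate 1 alone lay well below them. The exons of Ccna2 share 12.5% of their length with Exosc9 on the opposite strand. Cdc25c encodes a further phosphatase that activates CDK1. It had 43.5, 44.8 and 50.5 CPM in the sg-con libraries and 44.1, 56.2 and 54.4 in those labelled sg-kiaa1522 (log2 fold change 0.16, standard error 0.114, adjusted p = 0.27), and 12.7% of its exon length is shared with Gm3550 on the opposite strand. Foxm1 encodes a transcription factor that activates many G2 and mitosis genes. It had 148, 226 and 190.4 CPM in the sg-con libraries and 151, 110.1 and 154 in those labelled sg-kiaa1522 (log2 fold change -0.44, standard error 0.179, adjusted p = 0.070), with wide spread in both groups. Without sg-con replicate 1 it was called lower (log2 fold change -0.60, adjusted p = 0.016).

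Among the spindle checkpoint genes, Ttk and Bub3 were called, in opposite directions. Ttk encodes the kinase MPS1 that starts checkpoint signalling. It had 56.4, 47.4 and 50.5 CPM in the sg-con libraries and 36.7, 42.4 and 39.9 in those labelled sg-kiaa1522 (log2 fold change -0.37, standard error 0.0978, adjusted p = 0.015). Bub3 encodes a WD-repeat protein that brings BUB1 and BUBR1 to the kinetochore. It had 96.0, 101 and 106 CPM in the sg-con libraries and 117, 124 and 127 in those labelled sg-kiaa1522 (log2 fold change 0.28, standard error 0.0667, adjusted p = 0.0096). The groups did not overlap for either. Mad2l1, encoding MAD2, the checkpoint protein that binds CDC20, had 125, 124 and 121 CPM in the sg-con libraries and 99.7, 113 and 113 in those labelled sg-kiaa1522 (log2 fold change -0.18, standard error 0.0694, adjusted p = 0.057), where the groups were separate although the test was not passed. The kinase gene Bub1 had 91.2, 78.9 and 71.5 CPM in the sg-con libraries and 59.4, 77.8 and 75.2 in those labelled sg-kiaa1522 (log2 fold change -0.18, standard error 0.129, adjusted p = 0.26). Bub1b, encoding BUBR1, had 164, 159 and 148 CPM in the sg-con libraries and 123, 153 and 146 in those labelled sg-kiaa1522 (log2 fold change -0.16, standard error 0.0920, adjusted p = 0.18). The groups overlapped in Bub1 through sg-kiaa1522 replicates 2 and 3, and in Bub1b through replicate 2.

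Of the 4 genes that act at the exit from metaphase, as activators or as an inhibitor, 3 were called higher, beside 26.3% of all tested genes. Cdc20 (ENSMUSG00000006398, chromosome 4 from 118432901 to 118437352), the activator of the APC/C in mitosis and the target of the checkpoint, had 96.6, 106 and 118 CPM in the sg-con libraries and 141, 153 and 144 in those labelled sg-kiaa1522. It rose from 107 ± 10.7 to 146 ± 6.28 CPM (SD, n = 3) (log2 fold change 0.45, standard error 0.0844, adjusted p = 0.0036), and it ranged from 0.37 to 0.52 with each library left out. Ube2c encodes the ubiquitin-conjugating enzyme that works with the APC/C. It had 107, 123 and 125 CPM in the sg-con libraries and 134, 161 and 163 in those labelled sg-kiaa1522 (log2 fold change 0.37, standard error 0.0991, adjusted p = 0.016). For Ube2c the call was lost without sg-kiaa1522 replicate 2 or 3 (log2 fold change 0.32 to 0.33 and adjusted p 0.061 to 0.063 in those fits), and 22.8% of its exon length is shared with Tnnc2 on the opposite strand. Pttg1, securin, the inhibitor of separase that the APC/C destroys, had 71.7, 84.8 and 87.4 CPM in the sg-con libraries and 115, 87.7 and 134 in those labelled sg-kiaa1522 (log2 fold change 0.46, standard error 0.154, adjusted p = 0.037). The lowest library labelled sg-kiaa1522 exceeded the highest sg-con library of Pttg1 by less than 1 CPM, and the call was lost without sg-con replicate 1, 2 or 3 or sg-kiaa1522 replicate 1 or 3 (log2 fold change 0.31 to 0.51 and adjusted p 0.053 to 0.12 in those fits). Espl1, separase, the protease that cuts cohesin at anaphase, had 101, 101 and 90.2 CPM in the sg-con libraries and 90.2, 119.5 and 110.4 in those labelled sg-kiaa1522 (log2 fold change 0.13, standard error 0.110, adjusted p = 0.34), with overlapping groups.

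The chromosomal passenger complex, which corrects faulty attachments and later directs cleavage, showed no call among its 3 members. Aurkb, Aurora B, its kinase, had 62.7, 67.4 and 68.6 CPM in the sg-con libraries and 64.0, 78.5 and 76.6 in those labelled sg-kiaa1522 (log2 fold change 0.14, standard error 0.0945, adjusted p = 0.24). Incenp, its scaffold, had 186, 202 and 199 CPM in the sg-con libraries and 187, 218 and 207 in those labelled sg-kiaa1522 (log2 fold change 0.06, standard error 0.0745, adjusted p = 0.53). Cdca8, borealin, had 61.1, 72.5 and 76.0 CPM in the sg-con libraries and 62.7, 80.2 and 76.7 in those labelled sg-kiaa1522 (log2 fold change 0.07, standard error 0.120, adjusted p = 0.65). In all 3 the groups overlapped. Birc5, survivin, the remaining subunit of the complex and also an inhibitor of apoptosis, is not a member. It had 120.2, 161 and 169 CPM in the sg-con libraries and 70.7, 84.2 and 80.2 in those labelled sg-kiaa1522 and fell (log2 fold change -0.94, standard error 0.135, adjusted p = 0.0011), and leaving out single libraries gave log2 fold changes of -1.08 to -0.85.

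The kinesins, motors that slide, depolymerize or bundle spindle microtubules, had log2 fold changes between -0.28 and 0.19. Kif4 encodes a chromosome-arm motor. It had 67.5, 65.9 and 63.1 CPM in the sg-con libraries and 47.9, 58.9 and 54.5 in those labelled sg-kiaa1522 (log2 fold change -0.28, standard error 0.0926, adjusted p = 0.035), and the call was lost without sg-con replicate 1 or 2 or sg-kiaa1522 replicate 1 or 3 (log2 fold change -0.29 to -0.21 and adjusted p 0.055 to 0.092 in those fits). Its exons share 15.1% of their length with Pdzd11 on the opposite strand. The bipolar spindle motor Kif11 had 170.1, 148 and 149.7 CPM in the sg-con libraries and 127, 165 and 162 in those labelled sg-kiaa1522 (log2 fold change -0.04, standard error 0.112, adjusted p = 0.77). Kif2c encodes a microtubule depolymerase of centromeres. It had 64.4, 68.6 and 67.4 CPM in the sg-con libraries and 55.1, 66.3 and 65.3 in those labelled sg-kiaa1522 (log2 fold change -0.10, standard error 0.0895, adjusted p = 0.37). Kif20a encodes a motor of the central spindle. It had 181, 187 and 196 CPM in the sg-con libraries and 149.9, 184 and 179.9 in those labelled sg-kiaa1522 (log2 fold change -0.13, standard error 0.0880, adjusted p = 0.23), and 29.3% of its exon length is shared with Cdc23 on the opposite strand. All 3 had overlapping groups. Kif20b encodes a kinesin with a part in cytokinesis. It had 122, 101 and 91.3 CPM in the sg-con libraries and 92.8, 123 and 121 in those labelled sg-kiaa1522 (log2 fold change 0.10, standard error 0.140, adjusted p = 0.57). Kif23 encodes the motor subunit of the centralspindlin complex. It had 133, 124 and 122 CPM in the sg-con libraries and 121, 158 and 149.5 in those labelled sg-kiaa1522 (log2 fold change 0.18, standard error 0.102, adjusted p = 0.18). Kif18b, which trims the plus ends of spindle microtubules, had 53.2, 56.4 and 58.1 CPM in the sg-con libraries and 56.4, 68.8 and 66.1 in those labelled sg-kiaa1522 (log2 fold change 0.19, standard error 0.0944, adjusted p = 0.13). In each of these last 3 genes sg-kiaa1522 replicate 1 was the lowest of its group, and without it Kif23 (log2 fold change 0.28, adjusted p = 0.023) and Kif18b (log2 fold change 0.27, adjusted p = 0.036) were called higher.

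Spindle microtubule proteins gave no call with all 6 libraries. Tpx2, which activates Aurora A and nucleates microtubules, had 161, 186 and 193 CPM in the sg-con libraries and 165, 180.1 and 180.1 in those labelled sg-kiaa1522 (log2 fold change -0.04, standard error 0.0830, adjusted p = 0.71). Nusap1 encodes a protein of microtubules around chromosomes. It had 89.1, 86.2 and 98.4 CPM in the sg-con libraries and 73.0, 96.2 and 88.9 in those labelled sg-kiaa1522 (log2 fold change -0.08, standard error 0.110, adjusted p = 0.55). Aspm encodes a protein of the spindle poles. It had 93.0, 79.1 and 71.8 CPM in the sg-con libraries and 79.4, 102 and 96.4 in those labelled sg-kiaa1522 (log2 fold change 0.19, standard error 0.125, adjusted p = 0.24). The groups overlapped in each. Hmmr, also of the spindle poles, had 122, 99.7 and 97.3 CPM in the sg-con libraries and 101, 145 and 135 in those labelled sg-kiaa1522 (log2 fold change 0.26, standard error 0.145, adjusted p = 0.17). Hmmr was called higher without sg-kiaa1522 replicate 1 (log2 fold change 0.40, adjusted p = 0.029). Prc1, which bundles the microtubules of the central spindle, had 168, 156 and 101 CPM in the sg-con libraries and 173, 156 and 155 in those labelled sg-kiaa1522 (log2 fold change 0.18, standard error 0.174, adjusted p = 0.40), and sg-con replicate 3 alone was far below the other 5 libraries.

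Cytokinesis genes differed from each other. Anln, anillin, the scaffold of the contractile ring, had 250.3, 199 and 190.1 CPM in the sg-con libraries and 255, 345 and 343 in those labelled sg-kiaa1522 and rose (log2 fold change 0.56, standard error 0.146, adjusted p = 0.014). For Anln sg-con replicate 1 was above the other sg-con libraries and sg-kiaa1522 replicate 1 lay close to it, and the call was lost without sg-con replicate 2 or sg-kiaa1522 replicate 2 or 3 (log2 fold change 0.49 to 0.51 and adjusted p 0.052 in those fits). Racgap1 encodes the partner of KIF23 in centralspindlin. It had 268, 267 and 278 CPM in the sg-con libraries and 222, 253 and 239 in those labelled sg-kiaa1522 (log2 fold change -0.19, standard error 0.0655, adjusted p = 0.043). Its groups did not overlap, yet the call was lost without sg-con replicate 2 or 3 or sg-kiaa1522 replicate 1 or 3 (log2 fold change -0.20 to -0.14 and adjusted p 0.089 to 0.13 in those fits). Ect2 encodes the exchange factor that activates RhoA at the cell equator. It had 111, 97.4 and 77.8 CPM in the sg-con libraries and 80.7, 110.5 and 104 in those labelled sg-kiaa1522 (log2 fold change 0.05, standard error 0.157, adjusted p = 0.83), with overlapping groups.

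Chromosome structure genes were led by Top2a, the topoisomerase that untangles sister chromatids and the most abundant member per length in the sg-con libraries. Top2a had 792, 714 and 694 CPM in the sg-con libraries and 498, 629.9 and 649 in those labelled sg-kiaa1522 (log2 fold change -0.31, standard error 0.108, adjusted p = 0.045). Its groups did not overlap, but the call was lost without sg-con replicate 1, 2 or 3 or sg-kiaa1522 replicate 1 or 2 (log2 fold change -0.35 to -0.20 and adjusted p 0.053 to 0.097 in those fits). The condensin subunits, which compact mitotic chromosomes, were not called. Smc2 had 109.8, 85.2 and 71.3 CPM in the sg-con libraries and 63.8, 88.5 and 86.8 in those labelled sg-kiaa1522 (log2 fold change -0.15, standard error 0.180, adjusted p = 0.50). Its partner in the condensin core, Smc4, had 274, 226 and 226 CPM in the sg-con libraries and 254, 316 and 302 in those labelled sg-kiaa1522 (log2 fold change 0.26, standard error 0.109, adjusted p = 0.077) and was called higher without sg-con replicate 1 or without sg-kiaa1522 replicate 1 (log2 fold change 0.36 and 0.35, adjusted p = 0.019 and 0.032). Of the condensin I subunits, Ncaph was the only 1 whose groups did not overlap. Ncaph had 105, 105 and 99.3 CPM in the sg-con libraries and 113, 112 and 118 in those labelled sg-kiaa1522 (log2 fold change 0.15, standard error 0.0596, adjusted p = 0.073). Ncapd2 had 345, 345 and 352 CPM in the sg-con libraries and 286, 349.8 and 333 in those labelled sg-kiaa1522 (log2 fold change -0.11, standard error 0.0809, adjusted p = 0.30). Ncapg had 72.9, 67.1 and 68.4 CPM in the sg-con libraries and 54.7, 66.2 and 70.6 in those labelled sg-kiaa1522 (log2 fold change -0.12, standard error 0.104, adjusted p = 0.36), and 13.4% of its exon length is shared with Lcorl on the opposite strand. Mki67, the gene of the proliferation marker Ki67, which coats mitotic chromosomes, had 616, 567 and 514 CPM in the sg-con libraries and 393, 493 and 483 in those labelled sg-kiaa1522 (log2 fold change -0.31, standard error 0.105, adjusted p = 0.039). No library labelled sg-kiaa1522 reached the lowest sg-con library of Mki67, and the call was lost without sg-con replicate 1 or 2 or sg-kiaa1522 replicate 1 or 3 (log2 fold change -0.35 to -0.21 and adjusted p 0.058 to 0.096 in those fits).

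Within the group labelled sg-kiaa1522 the members were lowest in the same library more often than genes in general. Replicate 1 of that group was the lowest of its 3 libraries in 46 of the 54 members (85.2%), where it was the lowest in 37.0% of all tested genes, and replicate 2 was the highest in 41 (75.9%; 29.8% of all tested genes). In sg-con no library stood out to that extent, since replicate 1 was lowest in 24 members and highest in 23, and replicate 3 lowest in 22 and highest in 23. The mean over members of log2 CPM, centred for each gene over the 6 libraries, was 0.06, 0.05 and 0.04 in the sg-con libraries and -0.21, 0.05 and 0.02 in those labelled sg-kiaa1522. Apart from replicate 1, the libraries labelled sg-kiaa1522 were thus at about the level of the controls on this measure. For the kinetochore genes the same measure was 0.29, 0.30 and 0.36 against -0.46, -0.19 and -0.31, and for the anaphase genes -0.27, -0.13 and -0.11 against 0.07, 0.17 and 0.28, so that neither of these groups of genes overlapped between conditions. The median coefficient of variation of a member was 8.23% within sg-con and 12.6% within the other group, where all tested genes had 8.96% and 6.31%. The replicate with the low values also had the fewest counts, and the part of depth in its position was not tested.

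**Figure D3:**
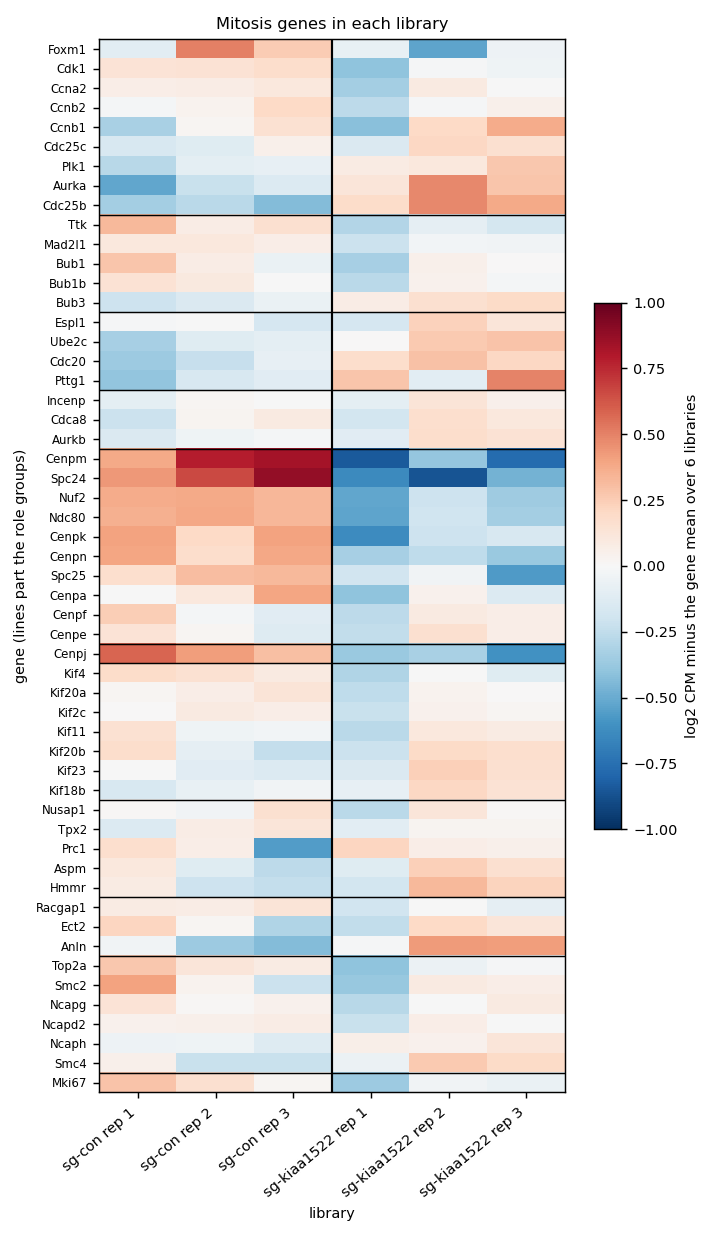
Log2 CPM of the 54 members (rows, by role) in each of the 6 libraries (columns), with the mean of the gene over the libraries subtracted, from blue (lower) to red (higher). The column of sg-kiaa1522 replicate 1 is bluer than its neighbours in most roles (mean -0.21), and the 7 called kinetochore rows are red in the 3 sg-con columns and blue in the other 3.

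Levels between genes were compared as CPM per kilobase of exon, with exon lengths from GENCODE M21. In the sg-con libraries the highest levels were those of Top2a (81.4 ± 5.79, SD, n = 3) and Ccnb2 (69.8 ± 5.73), and the lowest those of Cenpk (2.28 ± 0.188) and Cenpj (3.03 ± 0.307). After Ccnb2 came Cdc20 (57.3 ± 5.73), Mki67 (56.2 ± 5.07) and Ncapd2 (55.4 ± 0.604), whose means lay within the SD of Cdc20 of each other. In the libraries labelled sg-kiaa1522, Cdc20 was at 78.0 ± 3.36, Top2a at 65.7 ± 9.16 and Ccnb2 at 63.2 ± 7.14 CPM per kilobase. Within the NDC80 complex, sg-con levels were 22.4 ± 0.455 for Ndc80, 12.6 ± 0.733 for Spc25, 11.6 ± 1.81 for Spc24 and 8.99 ± 0.167 for Nuf2. In the libraries labelled sg-kiaa1522 they were 13.7 ± 1.55, 8.74 ± 1.61, 4.51 ± 0.635 and 5.44 ± 0.607 in the same order. The sg-con means of Spc24 and Spc25 differed by less than the SD of Spc24, and Spc24 lay below Spc25 in each library labelled sg-kiaa1522.

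**Figure D4:**
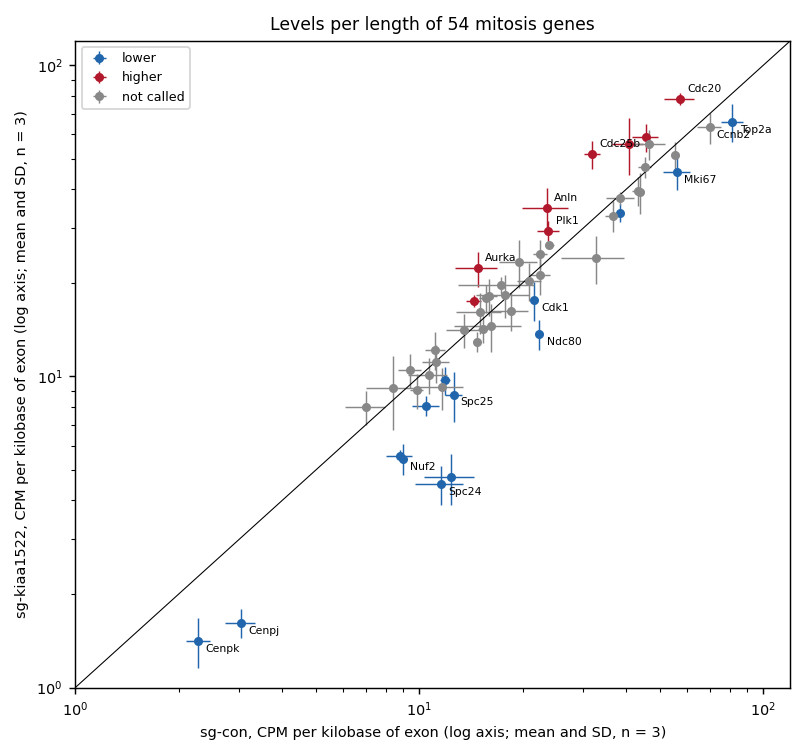
Mean level of each member per kilobase of exon in the sg-con libraries (horizontal, log axis) and in those labelled sg-kiaa1522 (vertical, log axis), with SDs of 3 libraries as bars and the line of equal levels. Spc24 (11.6 against 4.51) and Ndc80 (22.4 against 13.7) lie below the line and Cdc25b (31.8 against 51.7) above it.

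Of 111 other mitosis genes outside the list, 38 were called lower (34.2%) and 16 higher (14.4%), with a median log2 fold change of -0.16, beside 26.3%, 26.3% and -0.0067 over all tested genes. With each library left out in turn, between 8 and 18 were called higher: 10 without sg-con replicate 2, 9 without sg-con replicate 3, 9 without sg-kiaa1522 replicate 2 and 8 without sg-kiaa1522 replicate 3. In the same order, these fits called 20.5%, 22.5%, 20.8% and 20.6% of all tested genes higher. Among the 111 genes, 7 of 13 genes of the centromere network were called lower and none higher, and 5 of 14 genes of the outer kinetochore were called lower and 1 higher. Among augmin genes, which branch spindle microtubules, 4 of 8 were called lower and none higher. Of 16 genes of the APC/C and its regulators, 6 were called lower and 1 higher, and of 13 cohesin genes 4 and 3. Of 10 mitotic kinases and their regulators the counts were 3 and 1, of 19 other spindle genes 4 and 5, and of 3 condensin II genes 1 and 0. The other 15 of the 111 are transcription regulators, described further below. The largest falls were those of Pmf1, a subunit of the MIS12 complex on which NDC80 sits, with 46.0, 54.9 and 55.7 CPM in the sg-con libraries and 19.2, 24.3 and 20.3 in those labelled sg-kiaa1522 (log2 fold change -1.29, standard error 0.122, adjusted p = 1.7e-04), of Esco2, which acetylates cohesin in S phase (log2 fold change -1.29, standard error 0.181, adjusted p = 9.3e-04), and of the mitotic kinase gene Pbk (log2 fold change -1.19, standard error 0.0975, adjusted p = 1.0e-04). Esco2 and Pbk lie next to each other on chromosome 14, where the median over the 343 genes tested was -0.38 on the log2 scale. The largest rises were those of Nipbl, the cohesin loader (log2 fold change 0.80, standard error 0.157, adjusted p = 0.0042), and of Wee1, the kinase that holds CDK1 inactive, with 15.7, 13.1 and 14.3 CPM in the sg-con libraries and 18.9, 22.5 and 26.2 in those labelled sg-kiaa1522 (log2 fold change 0.65, standard error 0.140, adjusted p = 0.0062). They were followed by Lin54, the DNA-binding subunit of the MuvB complex that binds the TTTGAA element (log2 fold change 0.62, standard error 0.170, adjusted p = 0.018), Depdc1a (log2 fold change 0.56, standard error 0.201, adjusted p = 0.049) and Anapc1, the largest APC/C subunit (log2 fold change 0.55, standard error 0.0925, adjusted p = 0.0022). Of the 16 genes of the APC/C and its regulators Anapc1 alone was called higher, and the 6 called lower had log2 fold changes from -0.90 to -0.34. For Lin54 the call was lost without sg-con replicate 3 or sg-kiaa1522 replicate 2 or 3 (log2 fold change 0.51 to 0.61 and adjusted p 0.052 to 0.064 in those fits), and for Depdc1a the call was lost without sg-con replicate 2 or 3 or sg-kiaa1522 replicate 1, 2 or 3 (log2 fold change 0.40 to 0.64 and adjusted p 0.057 to 0.14 in those fits).

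Transcription regulators of the cell cycle among the 111 genes had 4 of 15 called lower (26.7%) and 5 higher (33.3%), near the 26.3% of all tested genes called in each direction. Named after their values were seen, the lower ones were E2f2 (-0.50), Mybl2 (-0.45), E2f7 (-0.35) and E2f1 (-0.21), and the higher ones Lin54 (0.62), Lin52 (0.54), E2f4 (0.52), E2f3 (0.50) and E2f6 (0.33), each value a log2 fold change. For E2f1 the call was lost without sg-con replicate 2 or 3 or sg-kiaa1522 replicate 1, 2 or 3 (log2 fold change -0.24 to -0.20 and adjusted p 0.066 to 0.084 in those fits). For E2f7 the call was lost without sg-con replicate 1 or 2 or sg-kiaa1522 replicate 1 or 2 (log2 fold change -0.35 to -0.29 and adjusted p 0.054 to 0.085 in those fits), and for E2f6 the call was lost without sg-con replicate 3 or sg-kiaa1522 replicate 1 or 3 (log2 fold change 0.28 to 0.33 and adjusted p 0.051 to 0.083 in those fits). E2F1 and E2F2 are activators of S-phase genes, MYBL2 joins MuvB to activate mitosis genes, and E2F4 belongs to the repressor form of that complex.

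The genes of DNA replication, which act before mitosis in the same cycle, are given for comparison. Of 40 such genes, 33 were called lower (82.5%) and 2 higher, with a median log2 fold change of -0.52, where the mitosis members had 25.9%, 14.8% and -0.08 and all tested genes 26.3%, 26.3% and -0.0067. Their mean centred log2 CPM was 0.27, 0.32 and 0.31 in the sg-con libraries and -0.41, -0.26 and -0.24 in those labelled sg-kiaa1522. The lowest value was again in sg-kiaa1522 replicate 1, but for these genes the other 2 libraries of that group also lay below every control. The higher ones, named after their values were seen, were Cdt1, which licenses replication origins (log2 fold change 0.23, standard error 0.0789, adjusted p = 0.042), and Dut, which breaks down dUTP (log2 fold change 0.24, standard error 0.0589, adjusted p = 0.012). For Cdt1 the call was lost without sg-con replicate 2 or sg-kiaa1522 replicate 1, 2 or 3 (log2 fold change 0.22 to 0.27 and adjusted p 0.055 to 0.11 in those fits). No test of the difference between the lists was run.

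**Figure D5:**
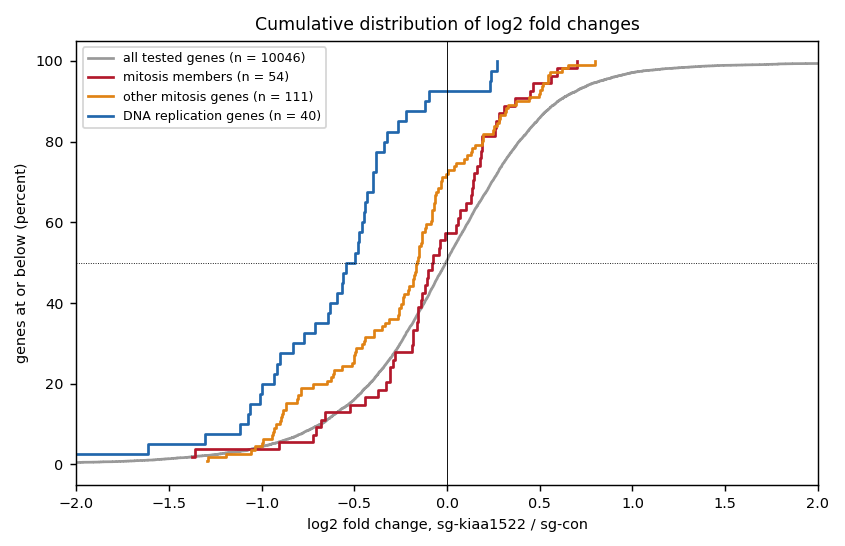
Percentage of genes at or below each log2 fold change (sg-kiaa1522/sg-con) for all 10046 tested genes, the 54 members, 111 other mitosis genes and 40 DNA replication genes. The curve of the members rises more steeply than that of all tested genes and crosses 50% near it (medians -0.08 and -0.0067), while that of the replication genes lies to the left (median -0.52).

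The median exon length was 2565.5 bases for the 8 higher members, 5082.5 for the 14 lower and 5298 for the 32 not called. Across the members, log2 fold change and exon length had a Spearman correlation of -0.08 (54 genes in the same libraries), where it was 0.22 over 10029 tested genes, given as a description of these libraries only. Chromosome 2 held 9 members, of which Aurka, Cdc25b and Ube2c were called higher and Spc25 lower, and the median over the 800 genes tested on it was 0.14 on the log2 scale. Over the chromosomes that hold members, these medians ran from -0.38 on chromosome 14 to 0.18 on chromosome 19. The median was -0.21 on chromosome 1, which holds Nuf2, and -0.19 on chromosome 10, which holds Cdk1.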

How the data were processed

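Total RNA of 6 libraries was sequenced on an Illumina HiSeq instrument. Per the study's methods and the submitters' processing notes, the authors trimmed reads and removed ribosomal RNA with Seqtk, aligned them to GRCm38 with HISAT2 2.0.4 and counted uniquely mapped fragments per gene with StringTie 1.3.0. The strand setting and annotation release are not given in the sources used here. The authors deposited whole-number counts per gene, not normalized, in 1 file per library.

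The 10046 of 34745 genes whose counts summed to more than 500 were fitted with edgeR 4.0.16 in R 4.3.3 (TMM normalization, quasi-likelihood test, Benjamini-Hochberg adjustment over all 10046). No covariate was used. The fold threshold of the study's methods, a log2 fold change of at least 1, was applied in addition. Scores per library used log2(CPM + 0.5). Exon lengths and positions came from GENCODE M21 on GRCm38, which held 34344 of the identifiers, and promoter windows from RefSeq on GRCm38.p6. Replicates of 1 group differed by more than sampling noise. At these depths 3 counts corresponded to between 0.161 and 0.245 CPM. In counts simulated for this comparison on 10046 genes, the test recovered 91 of 100 genes changed by a log2 fold change of 1 and 32 of 100 changed by 0.5, with 10 false calls. No other gene was changed in the simulation, whereas 26.3% of all tested genes were called in each direction in the data. The recovery rates therefore need not hold for the data.

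The members and gene lists were chosen with earlier results of these data known. Every member is named with its values. Of the genes outside the list, those with the largest called falls and rises, Birc5, the targeted gene and Knl1 are given, and called transcription regulators and the replication genes that rose are named after their values were seen. Alternatives were RLE size factors, library size alone, other count filters, DESeq2 1.42.0, the likelihood ratio test, a replicate block, thinned libraries, a stricter adjusted p, a shorter promoter window and each library left out in turn.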

Additional observations from a re-analysis of the deposited data

How the results depend on the processing

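The counts of members called lower and higher stayed within 1.5 times those reported under other size factors, other count filters, DESeq2, the likelihood ratio test and thinned libraries (11 to 15 lower, 8 or 9 higher). Of all genes tested in each, those fits called 16.8% to 27.2% lower and 16.7% to 26.6% higher. The smallest shares came from the fit of 18499 genes with at least 1 count, where 12 of the 54 members were lower and 8 higher. How the members compared with all genes thus varied with the filter. At an adjusted p of at most 0.01, 7 members were called lower (18.0% of all tested genes). Only Aurka, Bub3, Cdc20 and Cdc25b were then called higher (17.2% of all tested genes). A fit with a replicate block called 8 members lower and 8 higher (21.0% of all tested genes in each direction). Under it the calls of Ttk (adjusted p = 0.056), Cdk1, Kif4, Mki67, Racgap1 and Top2a among the members, and of Dut (0.058), Cdt1, Depdc1a, E2f1, E2f6 and E2f7 outside them, were not made. Same-numbered libraries had correlated deviations of -0.21, -0.05 and -0.17, so the numbers were not taken to pair the samples. With each library left out in turn, members called lower numbered 9 to 13 and higher 4 to 11, and other mitosis genes called higher numbered 8 to 18. Of all tested genes, those fits called 20.7% to 29.5% lower and 20.5% to 29.6% higher. Cenpm and Spc24 passed the fold threshold in every alternative fitted. Over the named genes, 569 of the fits that kept all libraries left direction and call as reported, 27 lost a call and 5 gained one, and with a library left out these were 367, 58 and 7. Cenpe turned to 0.0015 with filterByExpr and 0.0023 with thinned libraries. With a library left out, log2 fold changes that crossed 0 ranged from -0.0360 to 0.328 for Ccnb1, from -0.0239 to 0.168 for Cdca8, from -0.0948 to 0.0996 for Cenpe, from -0.151 to 0.0304 for Cenpf, from -0.0858 to 0.169 for Ect2, from -0.109 to 0.0684 for Kif11, from -0.171 to 0.0208 for Nusap1, from -0.0120 to 0.316 for Prc1, from -0.293 to 0.0212 for Smc2, from -0.120 to 0.00786 for Tpx2 and from -0.279 to 0.0307 for Knl1. None of these genes was called, and the cause was not tested. With 3 libraries a group, changes of a log2 fold change of 0.5 were recovered in part only in the simulation, where far fewer genes were changed. A gene that was not called is not shown to be unchanged.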
